A study of Mus musculus with 4 samples.

Results

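Argininosuccinate synthase (Ass1) and 7 enzymes of threonine, serine and glycine metabolism and the folate steps tied to it (Tdh, Gldc, Shmt1, Shmt2, Phgdh, Psat1 and Mthfd2) were followed through a droplet single-cell RNA data set of mouse embryonic stem cells (mESC). They were taken by gene symbol, all 8 were found, each as 1 of the 32285 genes of the matrix, and all 8 passed the minimum of 200 unique molecular identifiers (UMIs, each standing for 1 captured transcript). The labels list 2 WT replicates of the male E14tg2a.4 line and 2 replicates of Srrm2 hKO, a heterozygous Srrm2 truncation in the same line that came from a gene-trap resource as the single cell line CG0630, so the mutation was present in 1 clone. Cells of both genotypes were grown with LIF on gelatin and then in serum-free ESGRO medium with LIF, for 24 h or 72 h by the labels, which do not say which time goes with which sample; the study's methods for the single cells give another length. Each cell barcode carries a library number from 1 to 4, and no source used here ties that number to a labelled sample. No library was therefore called WT or Srrm2 hKO, no test between genotypes was made, and every value below belongs to a numbered library.

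Amino acids of this group are carbon sources as well as protein building blocks. Phgdh, the first enzyme of serine synthesis, and Psat1, the second, turn a glycolytic intermediate towards serine. Serine hydroxymethyltransferases, Shmt1 in the cytosol and Shmt2 in the mitochondrion, split serine into glycine and a methylene group carried by folate, and Mthfd2 oxidises that group in the mitochondrion. Gldc is the glycine decarboxylase of the glycine cleavage system, which also loads a methylene group on folate. Tdh, threonine dehydrogenase, starts the breakdown of threonine to glycine and acetyl-CoA, and mouse embryonic stem cells are known for their dependence on it. Ass1 joins citrulline and aspartate on the way to arginine. Many serine and folate enzymes are textbook targets of Atf4, the transcription factor of the amino acid stress response.

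In RefSeq, 7 of the 8 genes had a promoter window (build GRCm38.p6); Tdh had none. The 250 bases before the start of 5 of them are shown, Ass1 because it was the only member at least 1.5-fold higher in the cells with the most naive transcripts in all 4 libraries, and Shmt2, Phgdh, Psat1 and Mthfd2 because they were higher in cells with more amino acid stress transcripts. Capitals mark matches, on either strand, to CACGTG (the E-box) or CCAAT (the CCAAT box), which are the only searched motifs with a match in the windows of the 7 genes.
Ass1: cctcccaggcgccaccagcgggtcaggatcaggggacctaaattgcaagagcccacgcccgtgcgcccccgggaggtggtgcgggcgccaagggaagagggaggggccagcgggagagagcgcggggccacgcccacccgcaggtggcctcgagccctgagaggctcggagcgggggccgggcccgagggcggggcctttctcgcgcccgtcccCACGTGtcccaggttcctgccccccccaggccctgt
Shmt2: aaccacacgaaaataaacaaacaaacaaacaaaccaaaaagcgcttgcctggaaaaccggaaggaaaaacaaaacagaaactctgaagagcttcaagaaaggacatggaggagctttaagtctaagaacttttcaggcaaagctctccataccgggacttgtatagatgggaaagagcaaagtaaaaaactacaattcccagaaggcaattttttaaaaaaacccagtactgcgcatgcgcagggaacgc
Phgdh: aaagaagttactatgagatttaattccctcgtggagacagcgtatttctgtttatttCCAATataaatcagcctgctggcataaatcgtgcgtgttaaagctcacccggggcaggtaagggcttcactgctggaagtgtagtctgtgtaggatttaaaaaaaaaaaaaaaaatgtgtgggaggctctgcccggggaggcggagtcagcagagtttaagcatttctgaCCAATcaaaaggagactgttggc
Psat1: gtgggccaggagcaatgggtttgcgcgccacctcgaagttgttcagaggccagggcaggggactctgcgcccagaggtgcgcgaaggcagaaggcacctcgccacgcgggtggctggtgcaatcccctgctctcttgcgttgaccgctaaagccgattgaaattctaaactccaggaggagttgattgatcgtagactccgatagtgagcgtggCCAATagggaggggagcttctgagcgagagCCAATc
Mthfd2: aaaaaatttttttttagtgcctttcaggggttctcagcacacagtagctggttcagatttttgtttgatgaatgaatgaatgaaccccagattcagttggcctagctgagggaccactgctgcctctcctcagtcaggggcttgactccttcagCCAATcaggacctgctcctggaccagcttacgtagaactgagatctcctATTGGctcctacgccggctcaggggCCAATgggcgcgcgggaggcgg
These windows are chr2:31470020-31470269 on the plus strand for Ass1 and, on the minus strand, chr10:127522445-127522694 for Shmt2, chr3:98339970-98340219 for Phgdh, chr19:15925060-15925309 for Psat1 and chr6:83317605-83317854 for Mthfd2. The Psat1 and Mthfd2 windows lie inside the longer gene models of the GENCODE annotation, as does that of Shmt1, which is not shown. Those of Ass1 and Phgdh overlap their gene models in part, and the E-box of Ass1 falls in that overlap. Psat1 has a second RefSeq start whose window held no match. The CCAAT box was present in 5 of the 7 genes with a window (Gldc, Shmt1, Phgdh, Psat1 and Mthfd2), 3 times in that of Mthfd2, and in 33.8% of the 32851 windows in RefSeq. The count of members is by gene and the 33.8% is by window, and this motif was added after the data had been seen. The E-box was present only in Ass1 among the members, 36 to 31 bases before the start, and in 6.02% of all windows. Neither TGATGNAA, a form of the element bound by Atf4, nor TCAAGGTCA, the motif of the naive factor Esrrb, was found in the windows of the 7 genes. They occur in only 3.45% and 0.387% of all windows, so a match among 7 genes was unlikely beforehand. Their absence therefore says little about these genes, and sequence outside the windows was not searched.

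The cell filter stated by the study, as rebuilt here, kept 31989 of 41142 barcodes, which is not the study's own count of cells, between 7464 and 8514 per library, with a median of 18378 to 21898 UMIs per cell and 166839268 to 200180473 UMIs per library. Levels are given as CPM, the UMIs of a gene for every 1000000 UMIs of its library after the cell filter. Their 95% intervals are exact Poisson intervals, which cover counting error only; the spread between cultures is unknown. Levels of different genes were not compared, because 3′ capture differs from gene to gene. Srrm2, the targeted gene, stood at 387, 533, 238 and 356 CPM in libraries 1 to 4. The pluripotency gene Pou5f1 stood between 663 and 847 CPM, and the summed markers of primitive endoderm, trophectoderm and early streak cells stood at 1.45 to 10.8 CPM per library. Of 31883 barcode sequences, 105 occurred in more than 1 library.

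Of the 8 members, 6 differed by at least 1.5-fold between their highest and lowest library, and library 1 was the highest for 5 of these 6; of the 1978 genes with that fold and at least 20 CPM, 25.4% were highest in library 1 and 42.9% in library 4. The count of 6 stands beside 51.7% of the 14525 genes with at least 200 UMIs and 34.0% of the genes that reached 20 CPM in a library, as all members did. The median fold of the members was 1.89, against 1.52 over the 14525 genes and 1.37 over the more abundant ones.

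Ass1 (ENSMUSG00000076441, chr2:31470207-31520672, plus strand) stood at 100.3 CPM in library 1, 72.0 in library 2, 87.1 in library 3 and 46.9 in library 4. Library 1 was 2.14-fold over library 4 (95% interval 2.08 to 2.20), and no 2 neighbours in the order 1, 3, 2, 4 had overlapping intervals. Among the genes of arginine metabolism, its partner Asl, which cleaves argininosuccinate to arginine, stood at 22.1 to 25.6 CPM and differed by 1.16-fold at most.

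Tdh (ENSMUSG00000021953, chr14:63492347-63509092, minus strand) stood at 629.6, 543, 491 and 303 CPM in libraries 1 to 4. It was 2.07-fold higher in library 1 than in library 4 (2.05 to 2.10), and library 4 stood apart from the other three. Gcat, which takes the product of Tdh to glycine, was ordered 1, 3, 2, 4 like Ass1 and differed by 1.52-fold, from 149 to 98.2 CPM.

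Gldc (ENSMUSG00000024827, chr19:30098447-30175429, minus strand) ran the other way, with 76.0, 116, 101 and 138 CPM. Library 4 was 1.82-fold over library 1 (1.78 to 1.86). The other proteins of the glycine cleavage system did not share a single order: Gcsh, its lipoyl carrier, was also lowest in library 1 (142 CPM, against 155 to 207 in the others), while Amt, its aminomethyltransferase, was highest there (66.6 CPM, against 29.1 to 50.5) and Dld, shared with other dehydrogenases, differed by only 1.21-fold.

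The 2 serine hydroxymethyltransferases differed in their pattern. Shmt2 (ENSMUSG00000025403, chr10:127517123-127522444, minus strand) stood at 107, 59.2, 75.6 and 52.6 CPM, 2.03-fold higher in library 1 than in library 4 (1.98 to 2.08). Shmt1 (ENSMUSG00000020534, chr11:60788104-60811718, minus strand) stood at 77.1, 100.025, 71.7 and 80.8 CPM and did not reach 1.5-fold, with library 2 at 1.40-fold over library 3 (1.36 to 1.43). By CPM, the mitochondrial enzyme was thus highest where the cytosolic one was near its lowest. The order of libraries for Shmt1 depended on the scaling, as the closing section describes.

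Serine synthesis was divided as well. Phgdh (ENSMUSG00000053398, chr3:98313170-98339990, minus strand) was by CPM the most even member, at 119, 108, 119 and 135 CPM, and libraries 1 and 3 could not be told apart by counting error. The order of libraries for Phgdh depended on the scaling, as it did for Shmt1. Psat1 (ENSMUSG00000024640, chr19:15904678-15947337, minus strand) stood at 254, 144, 233 and 172 CPM, 1.77-fold higher in library 1 than in library 2 (1.74 to 1.80). Psph, which completes the pathway by removing the phosphate, stood at 118, 63.8, 89.1 and 56.6 CPM, with library 1 at 2.09-fold over library 4.

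Mthfd2 (ENSMUSG00000005667, chr6:83305691-83325908, minus strand) stood at 141, 71.9, 129 and 102 CPM, with library 1 at 1.96-fold over library 2 (1.92 to 2.00). Its order, 1, 3, 4, 2, was that of Psat1. Libraries 1 and 3 held the 2 highest CPM levels of Ass1, Shmt2, Psat1 and Mthfd2, and libraries 2 and 4 those of Gldc and Shmt1, the last only by CPM.

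**Figure D1:**
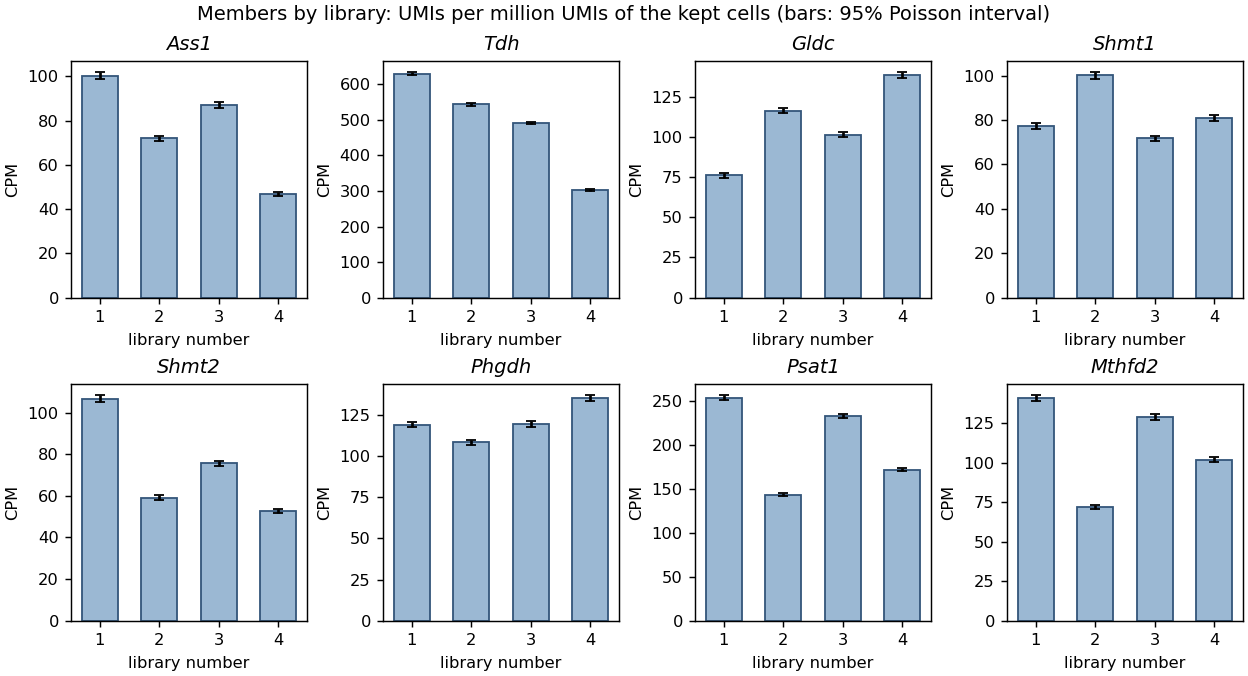
Level of each member in the 4 numbered libraries, as CPM (vertical axis, from 0), with bars for the 95% Poisson interval of the count. By CPM, Ass1, Tdh, Shmt2, Psat1 and Mthfd2 were highest in library 1, Gldc and Phgdh in library 4 and Shmt1 in library 2.

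The wider pathway lists were read in the same way. Of 56 listed genes, 51 had at least 200 UMIs, and 32 of these differed by at least 1.5-fold between libraries, again beside 51.7% of all genes. Of the 30 that reached 20 CPM in a library, 17 differed by that fold, beside 34.0% of all genes that reached 20 CPM. The amino acid stress list went furthest, with 9 of 10 genes at 1.5-fold or more and a median fold of 2.84. All 7 of its genes that also reached 20 CPM were highest in library 1, beside the 25.4% of all such genes. The limit of 20 CPM had a part in this count: Ddit3 and Chac1 reached it only in library 1. Atf5 and Slc7a11 differed by at least 1.5-fold but stayed below it, and were highest in libraries 3 and 4.

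Nupr1, a stress-induced chromatin protein, was 15.5-fold higher in library 1 than in library 4, with values of 178, 15.1, 73.2 and 11.5 CPM by library. Asns, asparagine synthetase, stood at 507, 154, 321 and 118 CPM. Ddit3, also called Chop, stood at 27.0, 5.50, 19.3 and 6.46 CPM, and Chac1, which degrades glutathione, at 22.7, 6.05, 13.9 and 13.7 CPM. All of these were highest in library 1 and second in library 3, the order of the first 2 libraries for Ass1, Shmt2, Psat1 and Mthfd2. For Chac1, libraries 3 and 4 were nearly level, so its second place is not secure. Whether the stress genes have a part in the differences of the members between libraries was not tested.

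In the serine, glycine and threonine list, 8 of 12 measured genes reached 1.5-fold, beside 51.7% of all genes. The 4 of them above 20 CPM (Amt, Psph, Slc1a5 and Gcat) were all highest in library 1, as were 25.4% of all such genes. The neutral amino acid carrier Slc1a5 stood at 43.2, 21.8, 30.6 and 24.5 CPM. The methionine list had 4 of 8 genes at 1.5-fold, near the share of all genes. Of these 4, Cth, cystathionine lyase, was the only one above 20 CPM, at 145, 44.2, 103 and 40.5 CPM.

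In the folate list, 5 of 12 genes reached 1.5-fold and the median fold was 1.44, near the 51.7% and 1.52 of all genes. Only Folr1, a folate receptor, did so above 20 CPM (27.4, 31.6, 37.9 and 23.1 CPM). In the arginine list, 6 of 9 measured genes reached 1.5-fold, beside the same 51.7%. Pycr1, of proline synthesis, was 3.06-fold higher in library 1 than in library 4, the arginine carrier Slc7a1 was 1.70-fold higher in library 1 than in library 2, and Got2 and Oat were highest in library 4, by 1.61-fold and 1.54-fold over library 1.

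**Figure D2:**
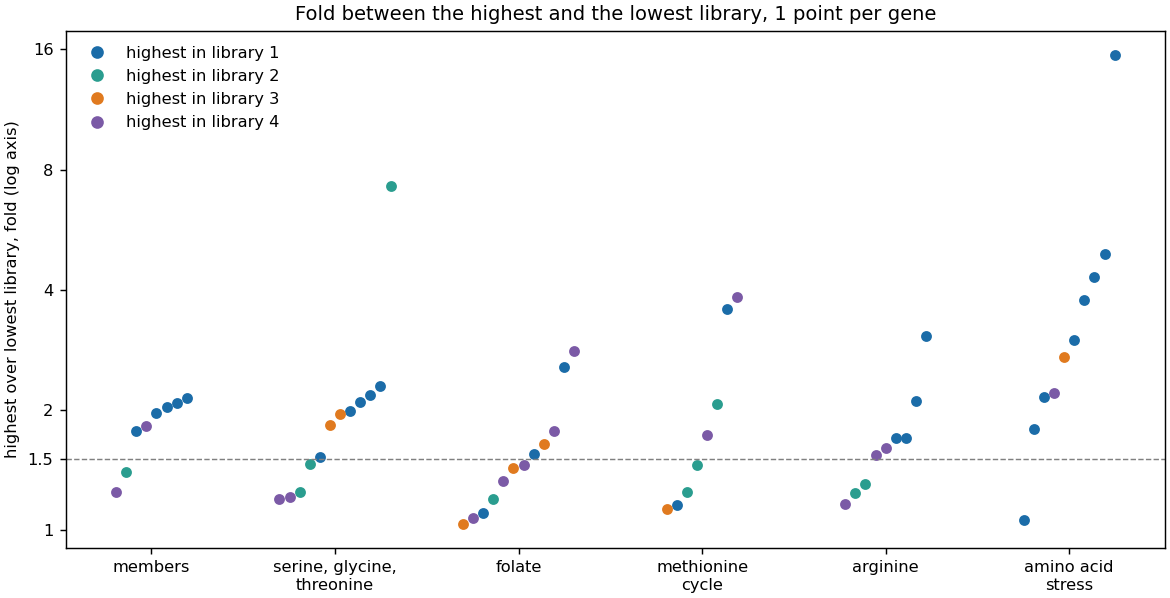
Fold between the highest and the lowest library (vertical axis, log scale) for the 8 members and for the 51 listed genes with at least 200 UMIs, 1 point per gene, coloured by the library in which it was highest. The dashed line marks 1.5-fold; 6 members and 9 of 10 amino acid stress genes lie above it.

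Cells were then separated into states by clustering, with the members and all listed pathway genes kept out of the genes used. Cluster 1 held 94.2% of library 1 and 73.3% of library 3, cluster 2 held 80.2% of library 2, and cluster 4 held 46.0% of library 4. These 3 clusters had high summed levels of 10 naive pluripotency genes, 1559 to 2044 CPM per library. Cluster 3 (18.9% of library 2 and 48.9% of library 4) had 350 to 487 CPM of the naive genes and 2110 to 2357 CPM of 10 formative genes, with Fgf5 among its leading genes. Cluster 5 (5.51% of library 1 and 26.1% of library 3) had 527 to 562 CPM of the naive genes and 837 and 2918 CPM of 7 keratin and contractile genes, against 8.03 to 26.5 CPM in cluster 1. Clusters 3 and 5 overlapped in these traits. Cluster 5 also had more formative transcripts, at 1337 and 1142 CPM in libraries 1 and 3, against 769 and 891 in cluster 1. The naive clusters 2 and 4 were not low in formative transcripts by this measure. Cluster 2 had 1007 CPM of them in library 2 and 1057 CPM in library 4. Cluster 4 of library 4 had 1246 CPM, more than cluster 5 of library 3. Cluster 3 had 155 and 416 CPM of the keratin and contractile genes in libraries 2 and 4. Those genes stood at 18.5 CPM in cluster 2 of library 2 and 49.4 CPM in cluster 4 of library 4. Clusters 6 and 7, with 93 and 52 cells from all 4 libraries, were too small to be compared. Since each of clusters 1 to 5 lay mainly in 1 library or 1 pair of libraries, members were compared between clusters inside a library; cells of 1 library are not replicates, so no test was made.

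Tdh, Ass1 and Shmt1 were lower, and Phgdh, Mthfd2 and Psat1 higher, in clusters 3 and 5 than in the naive clusters of the same library, in each of the 4 libraries. Ass1 was not low throughout cluster 5, as its finer clusters show. In library 1, Tdh stood at 155 CPM in cluster 5 and 669 in cluster 1, and Ass1 at 36.4 and 105 CPM. Cluster 1 was 4.31-fold over cluster 5 for Tdh (4.12 to 4.51) and 2.90-fold for Ass1 (2.64 to 3.19), and Shmt1 was lower too, at 50.9 and 79.2 CPM. Phgdh ran the opposite way, at 238 CPM in cluster 5 and 109 in cluster 1, a 2.18-fold difference (2.10 to 2.27), and Mthfd2 at 228 and 134 CPM. In all, 2 members were at least 1.5-fold higher in cluster 5, beside 19.2% of all genes, and 3 at least 1.5-fold lower, beside 14.1%. Psat1 missed that fold by little at 1.498, and Shmt2 was level at 109 and 107 CPM.

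The same comparison in library 3 gave 155 and 652 CPM for Tdh, a 4.19-fold difference (4.10 to 4.29). Phgdh stood at 183 and 88.7 CPM, 2.07-fold higher in cluster 5, Mthfd2 at 177 and 106 CPM, and Psat1 at 280.3 and 211 CPM. Ass1 stood at 70.4 and 94.4 CPM, only 1.34-fold lower in cluster 5 (1.29 to 1.39). Here 2 members were at least 1.5-fold higher, beside 23.6% of all genes, and 2 lower (Tdh and Shmt1), beside 10.9%.

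In library 2, cluster 3 was set against cluster 2. Tdh stood at 241 CPM in the cluster with formative genes and 622 in the naive one, a 2.58-fold difference (2.53 to 2.63), and Ass1 at 40.5 and 79.6 CPM, a 1.96-fold difference (1.86 to 2.07). Phgdh, at 151 and 97.5 CPM, was the only member at least 1.5-fold higher in cluster 3, beside 16.1% of all genes, and Tdh and Ass1 were the 2 lower ones, beside 10.4%. Gldc and Psat1 differed by 1.04-fold and 1.12-fold.

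Library 4 had cluster 3 as its largest, so that the naive clusters are the ones described as higher or lower. Tdh stood at 500.4 CPM in cluster 4 and 533 in cluster 2, against 123 in cluster 3. Ass1 stood at 57.0 and 90.0 CPM, against 34.3. Cluster 4 held 3 members at least 1.5-fold higher than cluster 3 (Tdh, Ass1 and Shmt1), beside 9.19% of all genes, and 2 lower (Phgdh and Mthfd2), beside 17.6%. Cluster 2, with 243 cells here, held 2 higher (Tdh and Ass1), beside 11.6%, and 2 lower (Phgdh and Mthfd2), beside 19.9%. Mthfd2 was 132 CPM in cluster 3, 70.2 in cluster 4 and 55.7 in cluster 2.

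Between these clusters of a library, Gldc differed by at most 1.33-fold and Shmt2 by at most 1.27-fold. The summed amino acid stress genes stood at 1256 and 1266 CPM in clusters 1 and 5 of library 1, 858 and 933 in library 3, 467 and 419 in clusters 2 and 3 of library 2, and 403 to 495 over the 3 clusters of library 4. The sum covers genes that went opposite ways: in library 2, Asns stood at 91.3 CPM in cluster 3 and 169 in cluster 2, while Atf4 stood at 114 and 82.0 CPM, and in library 4 Chac1 stood at 21.8 CPM in cluster 3 and 5.01 in cluster 4.

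**Figure D3:**
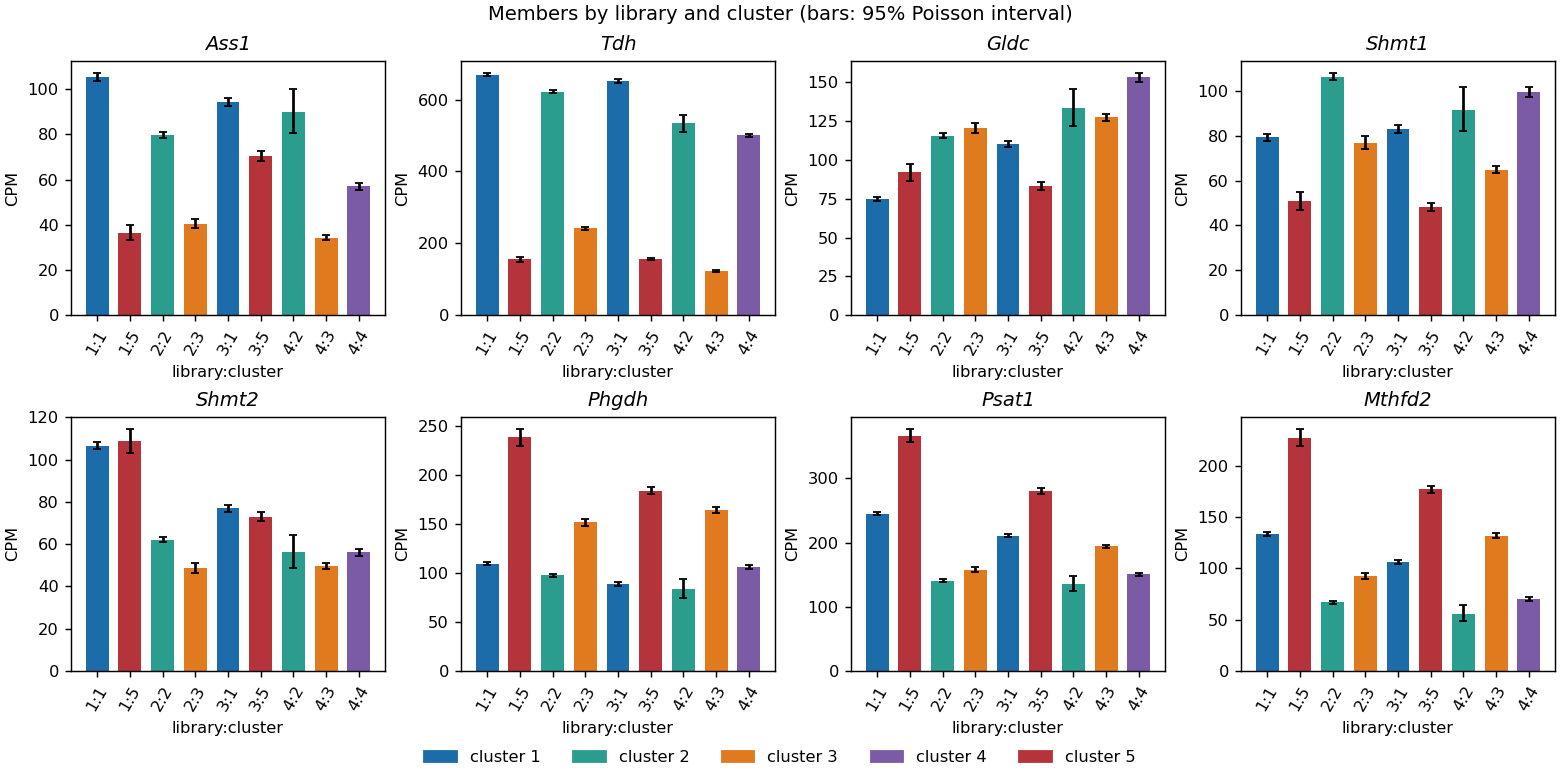
Level of each member in the 9 groups of at least 100 kept cells, named by library and cluster (horizontal axis), in CPM (vertical axis, from 0) with bars for the 95% Poisson interval; colours mark the clusters. Tdh is low in every group of clusters 3 and 5 (123 to 241 CPM, against 500.4 to 669 elsewhere), and Phgdh is high in them.

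Cluster 5 was not uniform for Ass1. At the higher resolution of the clustering, which was looked at in this way only after the values had been seen, the cells of cluster 5 in library 3 fell almost wholly into finer cluster 6, with 1606 cells, and finer cluster 7, with 460. Ass1 stood at 38.5 CPM in finer cluster 6 and 190.4 CPM in finer cluster 7, a 4.95-fold difference (4.65 to 5.28) inside what was 1 cluster. Most naive cells of the same library lay between them, at 88.0 CPM in finer cluster 3 with 5230 cells. A smaller naive group, finer cluster 1 with 551 cells, had 169.8 CPM of Ass1, and its median depth was the lowest of the 4, at 15797 UMIs per cell. Library 1 had 436 cells in finer cluster 6, at 34.4 CPM of Ass1. Library 4 had 59 cells in finer cluster 7, at 76.0 CPM, which lay between its naive finer clusters 5 (57.7 CPM) and 2 (96.0 CPM, 180 cells), and 55 cells in finer cluster 8, at 188 CPM. A high Ass1 level was also seen in cells with few keratin and contractile transcripts, 65.1 CPM in finer cluster 8 of library 4, where the median depth was 12184 UMIs per cell. Of these 55 cells, 92.7% belong to cluster 6, which was too small to be compared. Their Pou5f1 level was 453 CPM, against 768 in finer cluster 5.

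Every other member was lower in finer cluster 7 than in finer cluster 6 of library 3. Psat1 stood at 122 and 322 CPM, a 2.63-fold difference (2.50 to 2.78), Gldc at 37.6 and 95.2 CPM, Shmt1 at 25.5 and 54.5 CPM, Mthfd2 at 114 and 194 CPM and Shmt2 at 50.3 and 78.9 CPM. Only Phgdh (165 and 188 CPM) and Tdh (123 and 164 CPM) were less than 1.5-fold apart. In counts, 1 member was at least 1.5-fold higher, beside 23.2% of all genes, and 5 lower, beside 19.0%. Ass1 and the other members thus ran in opposite directions between finer clusters 7 and 6 of this library. Against the naive finer cluster 3 this did not hold for all of them. There Phgdh was higher in finer cluster 7 (165 and 89.7 CPM), as Ass1 was (190.4 and 88.0 CPM). Mthfd2 was nearly level (114 and 108 CPM), and the remaining members were lower in finer cluster 7.

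Finer cluster 7 had 10355 CPM of the keratin and contractile genes, against 940.3 in finer cluster 6, and 147 CPM of 5 fibroblast genes, against 1.07. All 5 fibroblast genes had a UMI in it, as they did in the naive finer cluster 3, where they summed to 0.271 CPM. Its leading genes over finer cluster 6 were Gzme, Col1a1 and Acta2, and the trophectoderm and primitive endoderm markers stood at 94.8 and 41.8 CPM, against 11.4 and 4.48. The summed pluripotency genes were lower, at 349 and 934 CPM, as was the S-phase panel, at 873 and 1850 CPM. The median depth was alike, at 21960 and 24558 UMIs per cell. What these cells are was not tested, and they were given no cell type name.

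**Figure D4:**
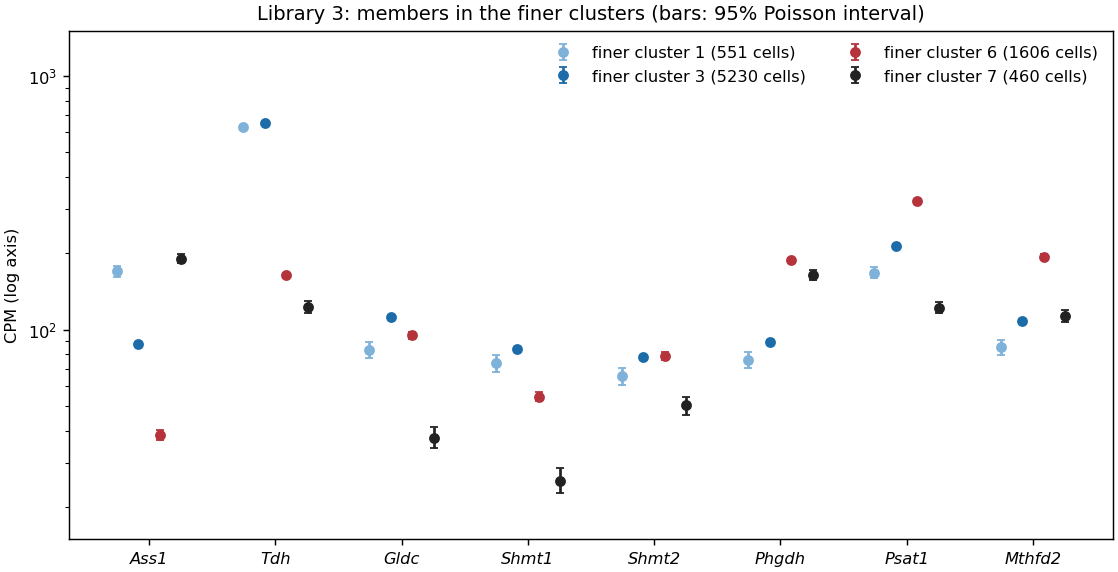
Level of each member in the 4 finer clusters of library 3 with at least 50 cells, in CPM (vertical axis, log scale) with bars for the 95% Poisson interval. Finer clusters 1 and 3 are the naive cells; finer cluster 7 has the highest Ass1 level, at 190.4 CPM, and the lowest Gldc, Shmt1 and Psat1 levels.

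States are steps, so cells of each library were also ranked by the share of their UMIs in the 10 naive genes and cut into 5 equal bins. Ass1 was the only member at least 1.5-fold higher in the top bin of all 4 libraries, beside 1.74% of the 9556 genes measured. Ass1 stood at 74.1 and 135 CPM in the lowest and top bins of library 1, 41.9 and 90.7 in library 2, 70.3 and 117 in library 3, and 31.9 and 65.3 in library 4, folds of 1.83, 2.16, 1.66 and 2.05. The level was higher in each bin than in the one before, in every library. With cells thinned to 5000 UMIs the fold in library 3 was 0.37 on the log2 scale and no longer reached 1.5-fold, and with 3 bins in place of 5 libraries 1 and 3 fell just short, at 0.58 on that scale.

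Tdh had larger folds but missed the count in library 1, where the top and lowest bins stood at 673 and 454 CPM, a 1.48-fold difference. In libraries 3 and 4 it ran from 78.0 to 685 CPM and from 62.6 to 546 CPM, 8.78-fold and 8.73-fold. Without library 1, Tdh joined Ass1 and the count was 2. Ass1 and Tdh differed in the shape of the increase: in library 3, Tdh was already at 472 CPM in bin 2 and between 631 and 685 from bin 3 on, while Ass1 went from 92.8 to 117 CPM over the last step.

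Phgdh was the only member at least 1.5-fold lower in the top bin of all 4 libraries, beside 5.48% of genes. It stood at 162 and 94.8 CPM in the lowest and top bins of library 1, 148 and 96.9 in library 2, 198 and 78.5 in library 3, and 171 and 105 in library 4. This call too was lost with 3 bins, where the log2 fold was -0.52 in library 1 and -0.43 in library 2, and with thinned cells, where it was -0.56 in library 2. Mthfd2 was also lower in each top bin, by 1.25-fold to 1.98-fold, and Psat1 by 1.10-fold to 1.42-fold. Shmt1 was higher in each top bin, by 1.13-fold to 1.91-fold. Shmt2 differed by at most 1.29-fold.

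Within the largest cluster of each library (cluster 1, 2, 1 and 3), a restriction chosen after the data had been seen, no member reached 1.5-fold in all 4 libraries in either direction, beside 0.0119% of genes higher and 0.0% lower. Ass1 was still higher in every top bin, by 1.43, 1.34, 1.47 and 1.34-fold. Tdh was at 1.06, 1.13 and 1.19-fold in libraries 1 to 3, and at 4.39-fold in library 4, where the largest cluster was the one with formative genes and the median depth was 27714 UMIs per cell in the top bin and 20025 in the lowest; the part of depth or doublets in this fold was not tested. Inside the naive clusters of libraries 1 to 3, the Ass1 difference was thus larger than that of Tdh.

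Cells were ranked in the same way by 14 S-phase genes. Here no member was at least 1.5-fold higher or lower in the top bin of all 4 libraries, beside 0.595% and 0.404% of genes. Shmt1 came nearest, at 1.25, 1.21, 1.66 and 1.35-fold. Ass1 ran the other way, at 0.975, 0.730, 0.653 and 0.854-fold, and in library 1 the difference was within counting error. In library 3 it stood at 79.0 CPM in the top bin and 121 CPM in the lowest, 1.53-fold lower. Mthfd1, the cytosolic folate enzyme, reached 1.12 to 1.49-fold.

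The last rank used the 10 amino acid stress genes and was added after the data had been seen. Psat1 and Mthfd2 were at least 1.5-fold higher in the top bin of all 4 libraries, beside 0.319% of 9401 genes, and no member was lower, beside 0.0425%. Mthfd2 stood at 81.2 and 180.3 CPM in the lowest and top bins of library 1, 45.8 and 131 in library 2, 57.3 and 192 in library 3, and 53.7 and 187 in library 4, folds of 2.22, 2.85, 3.36 and 3.49. Psat1 reached 1.71, 2.39, 2.53 and 2.39-fold, but its log2 fold in library 1 was 0.54 with 3 bins and 0.58 with thinned cells, just short of 1.5-fold, which left Mthfd2 as the only member called under both. Without Asns, the gene of the panel with the most UMIs in libraries 1 to 3, the count was again 2. Psph and Cth, which are in none of the ranked panels, went with them, at 1.80 to 2.34-fold and 1.86 to 2.24-fold.

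Phgdh and Shmt2 each reached 1.5-fold in 3 of 4 libraries, Phgdh at 2.03, 1.44, 2.21 and 1.52-fold and Shmt2 at 1.93, 1.64, 2.17 and 1.45-fold. The cytosolic Shmt1 did not go with Shmt2, at 0.984, 0.982, 1.01 and 0.829-fold, nor did Gldc, at 0.867 to 1.01-fold. Tdh was within 0.955 to 1.09-fold in libraries 1 to 3 and lower in the top bin of library 4, at 215 CPM against 339. Ass1 was within 0.918 to 1.11-fold in libraries 1, 2 and 4 and lower in the top bin of library 3, at 77.4 CPM against 120.0.

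Within the largest cluster of each library the stress rank gave 3 members higher (Psat1, Mthfd2 and Shmt2), beside 0.403% of genes, and none lower, beside 0.0733%. Shmt2 stood at 1.99, 1.62, 2.22 and 1.59-fold there. In library 3 the Ass1 ratio was 0.943 within cluster 1, which leaves out nearly all of finer cluster 6 and finer cluster 7; their parts in the pooled ratio were not tested.

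**Figure D5:**
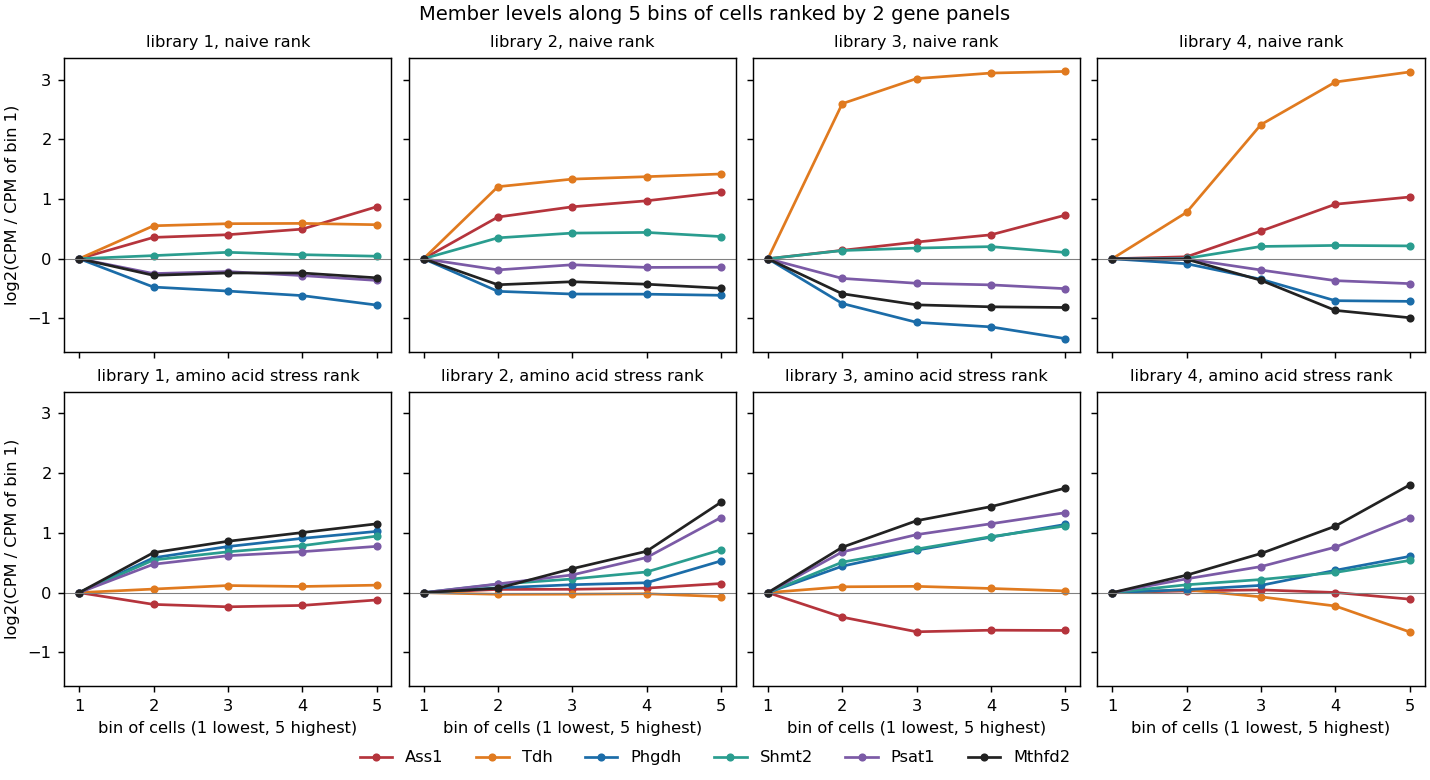
Log2 of the level of 6 members in each of 5 bins of cells over that in the lowest bin (vertical axis), for cells ranked within each library by 10 naive genes (upper row) or 10 amino acid stress genes (lower row). Tdh and Ass1 lie above 0 and Phgdh below it along the naive rank, and Mthfd2, Psat1, Phgdh and Shmt2 lie above 0 along the stress rank.

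The spread between single cells was set against an even level, gene by gene, since it depends on how much of a gene is captured. After thinning of every kept cell to 5000 UMIs, which none fell short of, Tdh was detected in 91.0%, 86.5%, 77.5% and 61.1% of cells in libraries 1 to 4 (97.7%, 97.6%, 90.3% and 82.4% before thinning), where an even level in all cells would give 95.8%, 93.5%, 92.2% and 78.2%. The variance of Tdh was 1.41 to 2.01 times its mean. Ass1 was detected in 38.0%, 29.0%, 32.8% and 20.3% of thinned cells (76.9%, 70.8%, 69.6% and 56.7% before thinning), and its variance reached 1.47 times the mean in library 3. Shmt1 and Shmt2 were close to an even level, with variances of 1.02 to 1.09 times the mean. All cells were of E14tg2a.4 or of the CG0630 line made from it. No cell type known to lack these transcripts was named, so free RNA was not measured for the members themselves. For scale, Acta2 stood at 1752 CPM in finer cluster 7 and 123 CPM over library 3, and at 2.59 CPM in the 5230 cells of finer cluster 3.

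Over the 9 groups of library and cluster, Mthfd2 and Psat1 were the 2 members most alike, with a Pearson correlation of log2(CPM + 1) of 0.96. Tdh went with Shmt1 at 0.83 and with Ass1 at 0.81, and against Phgdh at -0.91. Gldc ran against Shmt2 at -0.81. These are descriptions over groups that share libraries, without a test.

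Among 6426 genes, those most like Ass1 were Slc6a8, the creatine carrier, at 0.96, and Skap2, 1810013L24Rik, Gabbr1 and Pcolce at 0.94 to 0.95. Only 1 or 2 of these 5 were again among the first 5 when ranks were used, when small groups were left out, or when the clustering was open to the members. The genes most like Tdh were Tns3, Kat6b and Morc1, all at 0.99, and those most like Gldc were Eno1b, Eif4b and Cc2d1b, at 0.94 to 0.95.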

How the data were processed

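Single-cell 3′ libraries (10x Chromium v3) of 2 WT and 2 Srrm2 hKO mESC samples were deposited by the authors as 1 matrix of raw UMI counts per gene and barcode, made with Cell Ranger 6.1.2 (submitters' processing notes) on mm10 and joined with its aggregation step, which evens mean read depth between libraries; the study's cell filter had not been applied to it. That filter was applied here: UMIs and genes at or above the library mean minus 1 SD, and at most 10% mitochondrial UMIs. Doublets were not called; leaving out cells above 2 times the median UMIs of their library was an alternative.

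Counts were summed per library, cluster or rank bin and given as CPM. Intervals (95%) are exact Poisson, exact conditional binomial for ratios and Clopper-Pearson for shares, and cover counting error only. Clustering used 2000 variable genes, 20 components and a shared-neighbour graph with Leiden at resolution 0.2 (leidenalg 0.10.2, scikit-learn 1.9.0, R 4.3.3 for the variance fit), after the study's settings but without Harmony and with Leiden in place of Louvain; 64 members and pathway genes were held out. Folds count at 1.5 in genes with at least 200 UMIs. Srrm2 hKO and WT were not tested against each other, as had been planned, because no library could be tied to a sample. Gene positions are from GENCODE vM21 (GRCm38), promoter sequences from RefSeq (GRCm38.p6). The 2 rows of Ddit3 were summed, and Nanog is in both the naive and the pluripotency list. Functions were tested on simulated data.

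Named genes were the 8 members, per pathway list up to 4 genes with the largest fold (at least 1.5, and 20 CPM in a library), and the genes most like Ass1, Tdh and Gldc. Asl, Atf4, Atf5, Slc7a11, Gcsh, Dld, Mthfd1 and the leading genes of clusters were named after their values were seen. Members and lists were chosen with earlier results of these data known. The alternatives of the closing section changed the filter, scaling, depth, fold, clustering, ranks and libraries; the stress rank, the ranks within the largest cluster, the 20 CPM background, the removal of shared barcodes and the finer clusters of library 3 were added after the data had been seen, as was the CCAAT motif.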

Additional observations from a re-analysis of the deposited data

How the results depend on the processing

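No paired analysis was possible because no library could be tied to a labelled sample, and the planned comparison of Srrm2 hKO with WT and its alternatives were not run. Of the recomputed counts, 111 stayed within 1.5 times the value in the report and 19 did not. No share of all genes is given beside the counts of this section. They show only how the calls changed with the setting, not whether the members stood out. At 2-fold in place of 1.5-fold, 3 members (6 before) and 19 pathway genes (32 before) differed between libraries; 3 members differed between clusters 5 and 1 of library 1 (5 before), 1 between clusters 3 and 2 of library 2 (3 before), 2 between clusters 5 and 1 of library 3 (4 before) and 1 between clusters 4 and 3 of library 4 (5 before); 0 members were higher and 0 lower along the naive rank (1 and 1 before), and 1 higher along the stress rank (2 before). Ranks in 3 bins in place of 5, and likewise thinned cells, gave 0 higher and 0 lower along the naive rank and 1 higher along the stress rank, Mthfd2 in each case; the cause was not tested. Leaving out each library in turn gave 4 to 6 members and 23 to 31 pathway genes differing between libraries, 1 to 2 members higher along the naive rank and 2 to 3 along the stress rank. Of the 5 genes most like Ass1, 1 remained with Spearman correlation, 2 with groups of at least 300 cells and 2 with the clustering open to the members. Of the recomputed single values, 595 stayed within their counting interval, 221 moved and 0 called values changed sign. The largest shift, 1.72 on the log2 scale, came with resolution 0.4, for Ass1 in library 3. There the groups compared had changed. Finer cluster 6 was set against finer cluster 1, with 551 cells, and not against finer cluster 3, with 5230. Median-of-ratios scaling shifted members by up to 0.21 on the log2 scale. It raised library 1 against the others, with a size factor of 0.861 where its relative total was 0.938. The order of libraries for Shmt1 and Phgdh therefore depended on the scaling. At resolution 0.1 clusters 3 and 4 of library 4 were 1 cluster, so that comparison gave no value. Thinning moved 24 of 48 single values and 60 of 96 along the ranks.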
